A study of Arabidopsis thaliana with 8 samples.

Results

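The editing of mitochondrial transcripts in flowers of wild type Arabidopsis thaliana (ecotype Col-0, grown for 10 to 12 weeks in a greenhouse under long days) was compared, site by site, with a reference editing level that the authors deposited in the same tables. The Col-0 values came from 2 RNA-seq libraries of total RNA, A and B, treated with DNase and depleted of ribosomal RNA. The reference is 1 level per site with a spread, written as Std, and both are identical in the tables of A and B. Neither labels nor files state the tissue, genotype or study behind the reference, so each difference below is one from those listed levels. The sites were chosen by read depth alone: of 434 listed sites in 29 genes, those with at least 20 reads carrying T or C in both libraries were kept, which gave 226 sites in 24 genes. Nothing in the labels ties A and B to separate plants or pools, so their spread may be technical. The other libraries of the series are Ribo-seq of mitochondria, from Col-0 and from a pair of PPR mutants, and hold no editing levels here.

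Plant mitochondria change many cytidines of their transcripts to uridines by deamination after transcription. Nuclear-encoded pentatricopeptide repeat (PPR) proteins, which read a short stretch of RNA just upstream of the target, choose the cytidines. In sequencing of cDNA an edited cytidine reads as T and an unedited one as C, so the level of a site is the share of T among its T and C reads. Most edits in coding sequence change the amino acid, commonly toward the residue conserved in other organisms, while edits at the last base of a codon are usually silent and are often partial.

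The sequences below show, on the coding strand of the mitochondrial genome (MT, assembly TAIR10.1), the sequence around the cytidine at the 5 sites below the reference and at 6 of the 31 above it, taken from 3 of the genes described below. Each runs 5′ to 3′ over 26 bases, with the edited cytidine in capitals after 20 bases of upstream sequence and before 5 further bases. Each is named by its gene and its position in the authors' transcript, and the sites of nad5 and nad7 are those below.
nad5 2000 (MT 28255, plus strand): accttttctcgtatgtgggaCtctct
nad5 1736 (MT 27013, plus strand): agtactttttgtaatcgactCtatag
nad5 1802 (MT 27079, plus strand): gactttctagtcagatcgttCctgcg
nad7 1424 (MT 239385, minus strand): agtaatggaagcaatcgtccCtaccg
nad7 1169 (MT 241456, minus strand): gatcgttactgtatccgtatCgaaga
rpl5 516 (MT 185262, minus strand): gtcaagatccgttgctcaaaCcgaat
rpl5 505 (MT 185273, minus strand): agatgtatcacgtcaagatcCgttgc
nad3 292 (MT 288104, plus strand): gtctgctagtttctttgatcCtactc
nad3 439 (MT 288251, plus strand): tttcaattttatttttaatcCctgat
nad3 440 (MT 288252, plus strand): ttcaattttatttttaatccCtgatc
rps4 117 (MT 160067, plus strand): gtctactttcaggaaatgttCggaac

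Library B was read more deeply than A: the kept sites held 45347 T and C reads in A and 97888 in B, with medians of 82.5 and 150 reads per site and ranges of 20 to 5501 and 26 to 9238. Reads with A or G at these sites, which editing does not produce, made up 0.115% of the reads in A and 0.0613% in B. The mean absolute difference between B and A was 1.24 percentage points over the 226 sites, against a mean absolute difference of 4.76 points between the Col-0 level and the reference. Fisher's exact test (two-sided, Benjamini-Hochberg over the 226 sites) separated the libraries at 1 site, or 0.442% of those tested.

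Col-0 flowers were edited above the reference at 31 sites and below it at 5. A site counted as above or below where, in each library, the exact two-sided binomial test against the reference had an adjusted p under 0.05 (Benjamini-Hochberg over the sites) and the level lay more than 2 Std from the reference. By this rule 13.7% of the 226 sites were above and 2.21% were below. Another 115 sites lay within 2 Std of the reference in both libraries, and 75 met neither description. The binomial test takes the reference as exactly known. A normal test that adds the squared Std to the counting variance called only 5 sites above (atp1 1538, nad3 439, nad3 440, nad3 478 and nad9 640) and 1 below (nad5 2000), all of them among the 36. At atp1 1538 the Std is written as 0, so the normal test added no reference variance there.

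**Figure D1:**
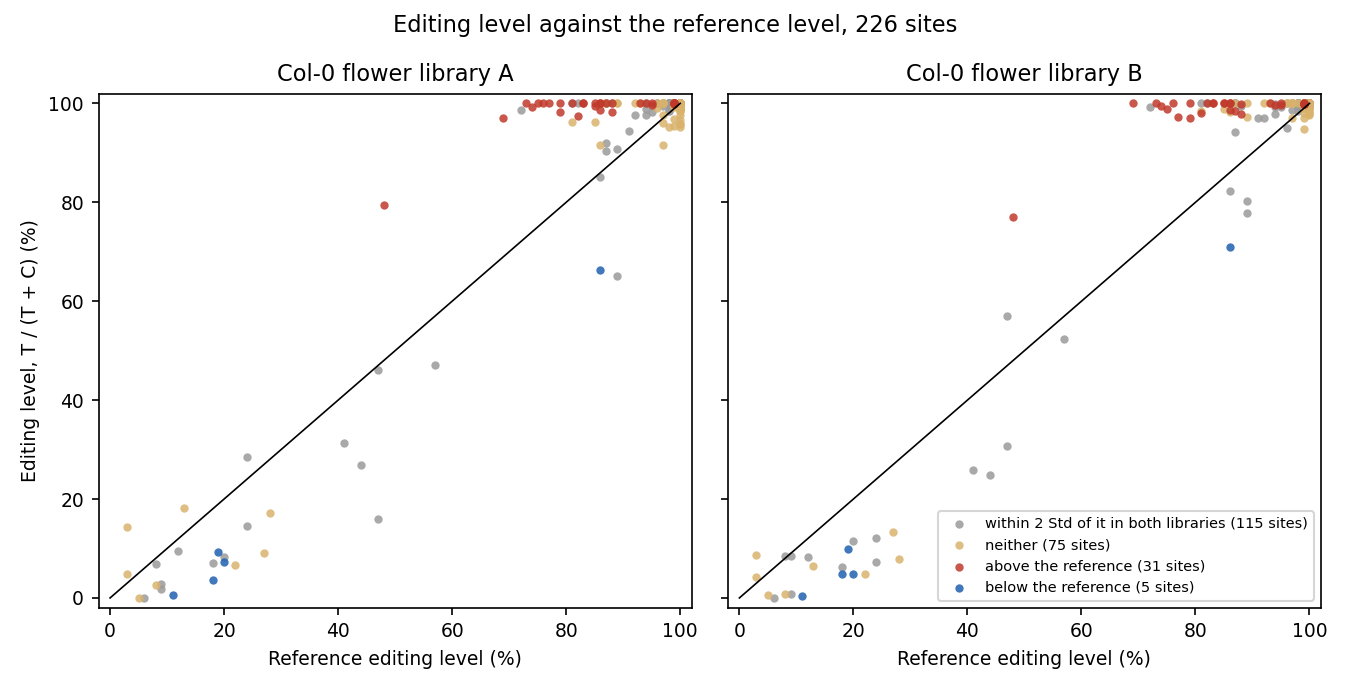
Editing level in Col-0 flower library A (left) and B (right) against the reference level, both in percent, with 1 point per site and the line of equality. Red points (31 sites) lie above the reference, blue points (5 sites) below it, and the sites between 10% and 89% on the horizontal axis spread toward the top and the bottom edges in both libraries.

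The differences sat mainly at sites that the reference lists as partially edited. Of 58 sites with a reference level of 10% to 89%, 21 were above and 5 below. Of 160 sites with a reference of 90% or more, 10 were above and 0 below, and of 8 sites with a reference under 10% none was called in either direction. The mean Col-0 levels of the 58 sites lay largely at the extremes: 35 were at 90% or more, 8 were under 10%, and 15 stayed between. The mean level of A and B was 90% or more at all 160 sites with such a reference, and under 10% at all 8 sites at the low end. At the 58 sites the mean absolute difference from the reference was 14.5 points, beside 3.20 points between the libraries. Both libraries lay on the same side of the reference by more than they differed from each other at 53 of the 58. That was so at 140 of all 226 sites, but the 76 with a reference of 100% cannot lie over it, so the shares are not alike.

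Split at 50%, the partially edited sites went opposite ways. Of 18 sites with a reference of 10% to 49%, 14 lay under it in both libraries, 1 lay over it in both and 3 had the libraries on either side or level with it, with a median difference of -11.8 points. Of 35 sites with a reference of 75% to 89%, 31 lay over it in both libraries and 3 under it in both, with a median difference of 13.3 points. The 5 sites between 50% and 74% had a median difference of 26.9 points. The split at 50% was chosen after the values had been seen, and the reference enters both the class and the difference, so these are counts without a test.

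The 5 sites below the reference were all silent, at the last base of their codon, in the complex I genes nad5 and nad7, whose products are a membrane arm and a matrix arm subunit. At nad5 2000, in an aspartate codon, 8 of 1369 reads were edited in A (0.584%, Wilson 95% interval 0.296 to 1.15) and 14 of 4140 in B (0.338%, 0.202 to 0.567), against a reference of 11% with an Std of 2. Both libraries lay under 1% at this site, and the upper bounds of both intervals were under the lower edge of the reference spread. At nad5 1802, in a phenylalanine codon, the level was 7.34% in A (24 of 327 reads) and 4.78% in B (45 of 942), against a reference of 20% with an Std of 4. At nad5 1736, in a leucine codon, it was 3.70% in A (4 of 108 reads) and 4.80% in B (19 of 396), against a reference of 18% with an Std of 4. The libraries lay close together at both of these sites, and neither reached the lower edge of the reference spread.

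In nad7, the proline codon site 1424 was edited at 9.38% in A (15 of 160 reads, Wilson 95% interval 5.76 to 14.9) and 9.88% in B (33 of 334, 7.12 to 13.6), against a reference of 19% with an Std of 4. The isoleucine codon site nad7 1169 had the largest shortfall of the 5. Its level was 66.3% in A (55 of 83 reads, 55.6 to 75.5) and 71.0% in B (120 of 169, 63.8 to 77.3), against a reference of 86% with an Std of 5. It was the only called site with a high reference that fell short of it, and both nad7 sites dropped out when 3 Std were required in place of 2. The exact binomial adjusted p of the 5 sites ran from 4.4e-54 (nad5 2000) to 0.00614 (nad7 1424) in A, and the same sites gave 9.8e-181 and 3.5e-05 in B.

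Further low-reference sites lay under the reference in both libraries without being called, in genes of several complexes. In cob, the apocytochrome b of complex III, site 2512 stood at 7.14% in A and 6.23% in B, against 18% with an Std of 9. In nad2, a membrane arm subunit gene of complex I, site 763 stood at 6.63% and 4.82%, against 22% with an Std of 8, and site 679 at 26.9% and 24.8%, against 44% with an Std of 17. The nad4 site 311 stood at 31.3% in A and 25.9% in B, against 41% with an Std of 9, and nad7 1163 at 9.17% and 13.4%, against 27% with an Std of 8. These 5 sites passed the binomial test in both libraries and were held back by the 2 Std bound in at least 1 of them. The largest negative difference of all, -23.6 points at nad5 872, rested on 50 and 26 reads (16% in A and 30.8% in B, against 47% with an Std of 17). The atp1 site 1470, the only site of that ATP synthase gene that is not near complete, stood at 9.52% in A and 8.22% in B, against 12% with an Std of 6, so that it lay within the reference spread at 756 and 1509 reads.

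At a pair of low-reference coding sites the libraries lay on opposite sides of the reference. The rpl2 site 908 gave 18.2% in A and 6.38% in B, against 13% with an Std of 2, on 22 and 47 reads. The nad4 site 1628 gave 28.6% in A and 12.1% in B, against 24% with an Std of 12, on 126 and 107 reads. Its 16.4 points were the largest difference between the libraries at any kept site, although it did not pass Fisher's test. No direction can be given for either site, since the libraries disagree. At 3 others both libraries lay under the reference without passing the test in A, and atp4 409 did not pass in B either. The atp4 site 409 gave 8.33% in A and 11.6% in B, against 20% with an Std of 7, and nad4 1433 gave 14.6% and 7.27%, against 24% with an Std of 12. cob 2826 gave 17.2% in A and 7.81% in B, against 28% with an Std of 9, on 29 and 64 reads.

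nad3, a small membrane arm subunit gene of complex I, had the highest share of sites above among the 24 genes. All 11 of its sites were kept, all 11 lay over the reference in both libraries, and 10 were called above, beside 13.7% of all sites. Of the 226 sites, 76 have a reference of 100% and cannot lie above it, so the closer comparison is with sites of similar reference. With a reference of 75% to 89%, 9 of 10 nad3 sites were above, beside 17 of 35 sites of all genes (48.6%), nad3 included, and the median differences were 16.9 points in nad3 and 13.3 points over the 35. Col-0 levels were 98.8% to 100% (mean of A and B), against reference levels of 74% to 88%, with a median difference of 17 points. At nad3 292, in a leucine codon where the edit is silent, 130 of 131 reads were edited in A and 318 of 320 in B (99.2% and 99.4%), against a reference of 74% with an Std of 8. At nad3 236, near the start of the reading frame, where the edit turns serine to leucine, all 40 reads were edited in A and all 69 in B, against 76% with an Std of 5. At nad3 377 (serine to phenylalanine) the levels were 98.2% in A and 100% in B, against 79% with an Std of 6. The neighbouring cytidines nad3 439 and 440 form the start of a proline codon that becomes phenylalanine when both are edited, and both were edited in every read of A (135 and 139) and B (371 and 382), against 83% with an Std of 4 at each. The remaining site, nad3 482, was edited in all 402 reads of A and all 2039 of B, and was not called because its reference of 82% carries an Std of 15.

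Sites in genes of the mitochondrial ribosome also lay mostly over the reference. Of 17 sites in ribosomal protein genes, 9 were above and 0 below, 15 lay over the reference in both libraries, and the median difference was 14.0 points, beside 0.81 points over all 226 sites. At a reference of 75% to 89% the group was near the level of all such sites, with 6 of 11 above (54.5%) and a median of 14.0 points, beside 48.6% above and 13.3 points over all 35. rps12 follows nad3 on the plus strand of the genome (nad3 at MT 288044 to 288400, rps12 at 288446 to 288823). Its 4 kept sites had levels of 97.5% to 100%, against references of 79% to 87%, and 2 of them were called above, rps12 313 and rps12 329. rps12 329 was edited in all 20 reads of A and in 32 of 33 of B, against 79% with an Std of 5, and with 20 reads it stood at the edge of the depth required. Its neighbour in the same serine codon, rps12 328, was edited in all 23 and 37 reads and did not pass in A.

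In rpl5, which encodes a protein of the large ribosomal subunit (MT 184762 to 185319, minus strand), 5 of 7 sites were above and all 7 lay over the reference in both libraries. rpl5 516, at the start of a proline codon, showed the largest difference of all sites, 30.3 points. It was edited in 27 of 34 reads in A (79.4%, Wilson 95% interval 63.2 to 89.7) and 64 of 83 in B (77.1%, 67.0 to 84.8), against a reference of 48% with an Std of 13, and it was the only site called above that stayed partially edited. rpl5 505 was edited at 97.1% in A and 100% in B, against 69% with an Std of 10. rpl5 550 was edited in all 58 reads of A and all 61 of B, against 73% with an Std of 10. rpl5 627 was edited at 100% in A and 98.1% in B, against 81% with an Std of 7. These 4 sites have wide reference spreads and dropped out at 3 Std, which left rpl5 970 (100% in A and 98.6% in B, against 86% with an Std of 3). cob, downstream of rpl5 on the same strand, had no site called above among 8. None of its references lies between 28% and 97%, where those of the 5 called rpl5 sites lie, so the genes cannot be compared.

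rps4, a gene of the small ribosomal subunit, had 4 kept sites, all over the reference in both libraries. rps4 117 (arginine to tryptophan) was edited in all 126 reads of A and in 353 of 357 in B, against 75% with an Std of 9. rps4 106 (serine to leucine) was edited in all 36 reads of A and in 70 of 72 in B, against 77% with an Std of 9. Both were called above, and neither at 3 Std. The group also held low-reference sites in rps3, rpl2 and rpl5 that were not called. rps3 288 stood at 2.70% in A and 0.806% in B, against 8% with an Std of 2, and passed in B alone. Depth was modest in all of these genes, with median reads per site of 37 in A and 74 in B for rpl5, 31.5 and 69.5 for rps4, and 24.5 and 48.5 for rps12.

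**Figure D2:**
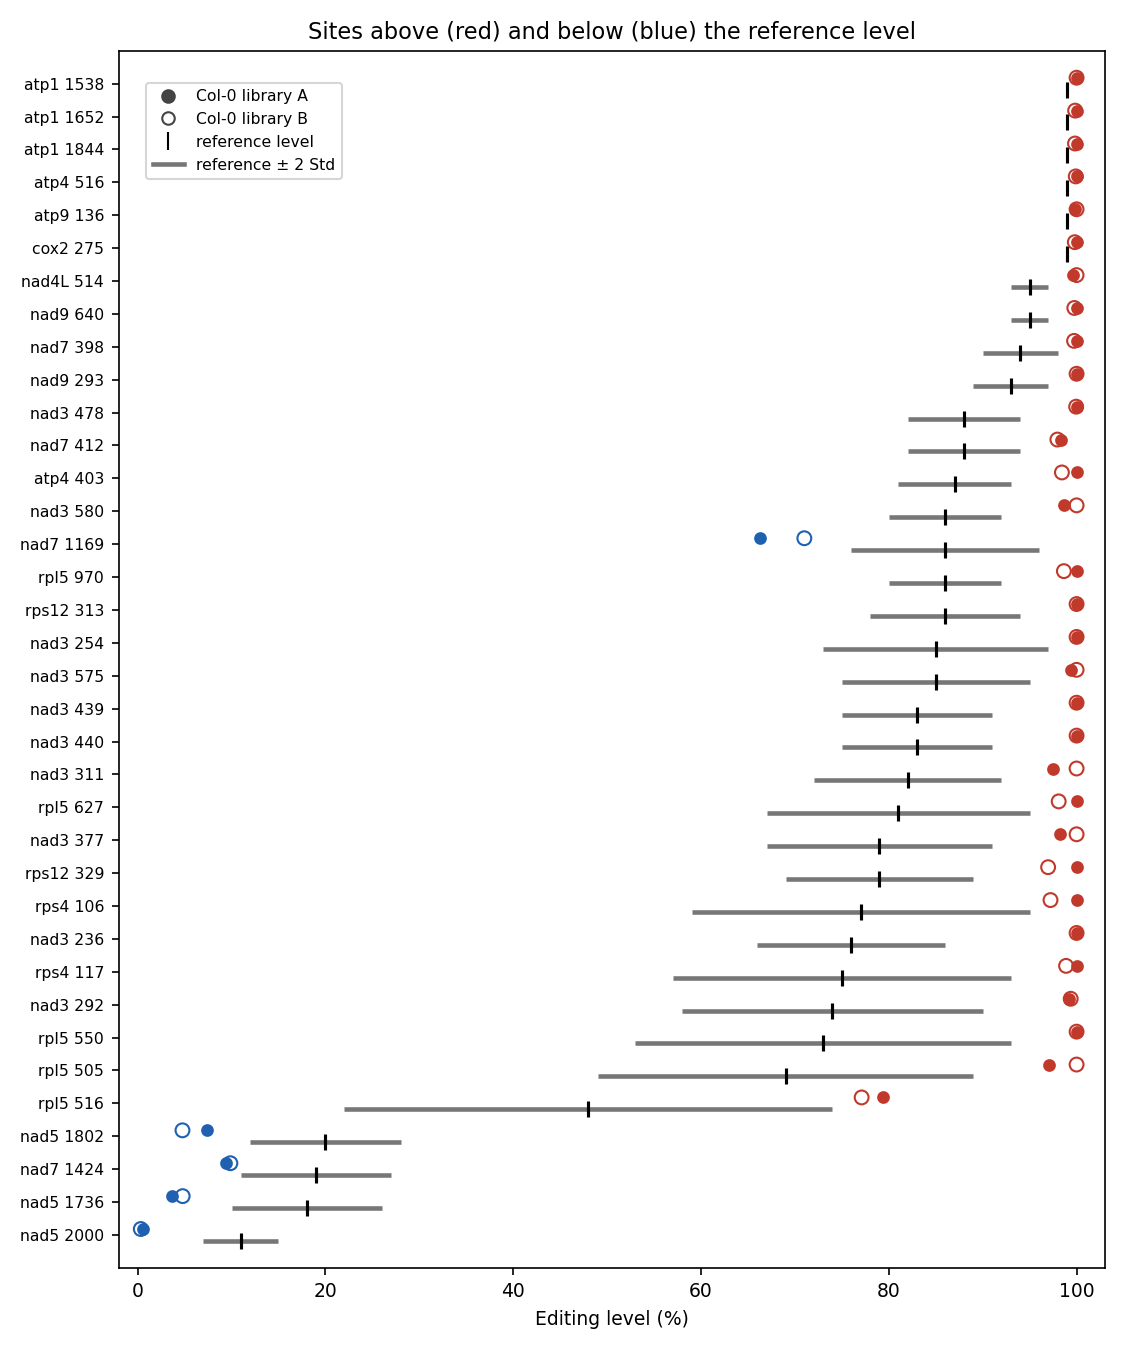
Editing level in percent at the 36 sites above (red) or below (blue) the reference, from high to low reference, with library A as filled and library B as open circles on the upper line of each row and the reference level with 2 Std either way on the lower line. Apart from rpl5 516 at 79.4% and 77.1%, the red sites lie at 96% or more in both libraries, while the blue sites of nad5 and nad7 lie left of the grey bars.

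Outside nad3 and the ribosomal protein genes, 12 sites were above, with differences of 0.904 to 12.2 points. In complex I, nad9 (a matrix arm subunit gene) had 2 of 7 above, nad9 293 with every read edited (178 in A, 511 in B) against 93% with an Std of 2, and nad9 640 at 100% and 99.8% against 95% with an Std of 1. All 7 nad9 sites lay over the reference in both libraries. nad7 had 2 sites above beside its 2 below: nad7 412 (serine to leucine) at 98.3% in A and 97.96% in B against 88% with an Std of 3, and the silent site nad7 398 at 100% and 99.7% against 94% with an Std of 2. nad4L had 1 of 7 above, nad4L 514 at 99.6% and 100% against 95% with an Std of 1. In atp4, a stalk subunit gene of the ATP synthase, the silent site 403 was edited in all 36 reads of A and 63 of 64 in B, against 87% with an Std of 3.

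The remaining 6 sites above were near complete in both the flowers and the reference. They were atp1 1538, atp1 1652, atp1 1844, atp4 516, atp9 136 and cox2 275, each with a reference of 99% and an Std written as 0, and each at 99.8% to 100% in both libraries. The Std is written as 0 at 100 of the 226 sites, where the 2 Std bound adds nothing to the binomial test. By contrast cox2 680, at 100% in both libraries against 99% with an Std of 1, passed the binomial test and was not called. Their differences of 0.904 to 1 point are close to the rounding of the reference to whole percents. When the reference could lie anywhere within its rounding, an alternative chosen after seeing the data, all 6 were lost, together with atp4 403, nad4L 514 and rps12 329 above and nad7 1424 below. When a difference of at least 5 points was required in both libraries, 23 sites were above and 5 below.

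**Figure D3:**
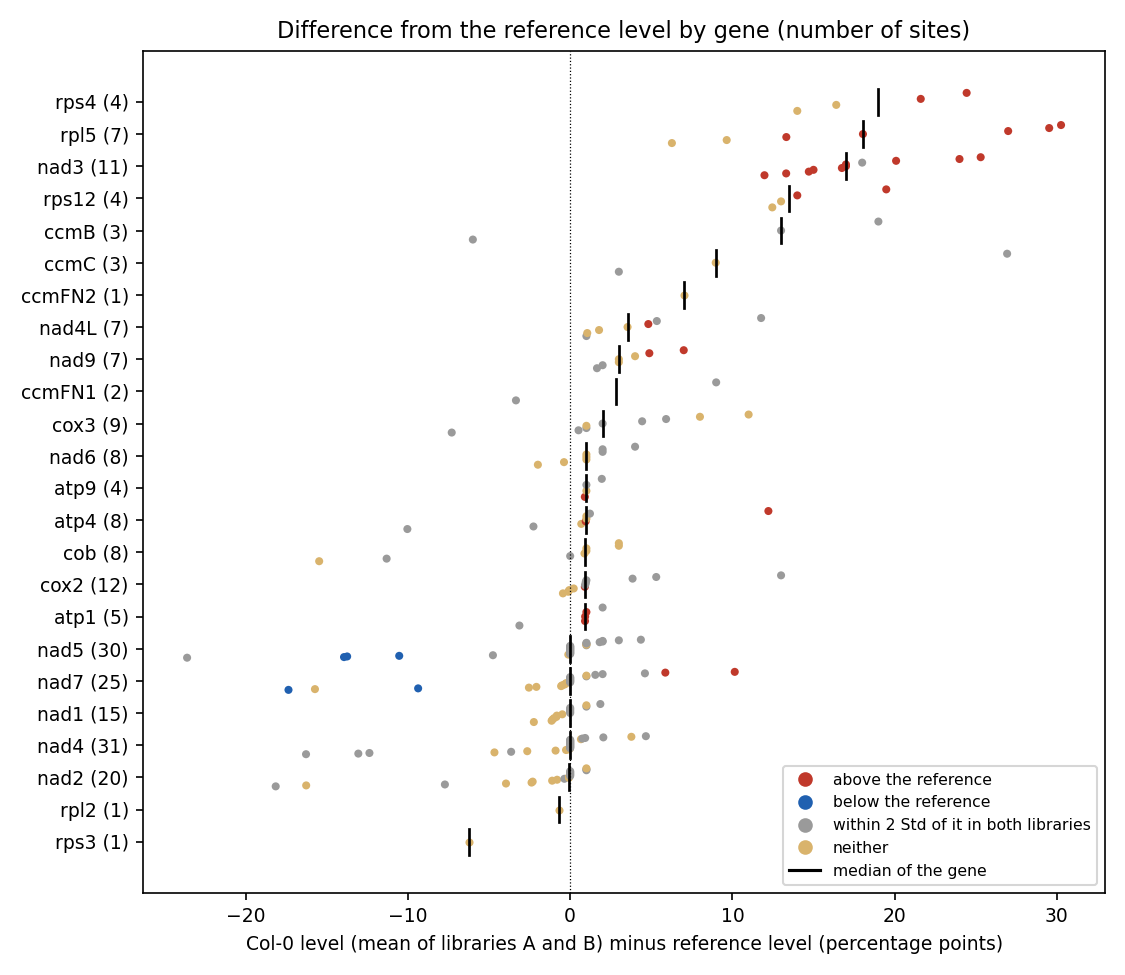
Difference between the Col-0 level (mean of libraries A and B) and the reference in percentage points, 1 point per site, with genes ordered by their median (black line) and the number of kept sites in parentheses. rps4, rpl5, nad3 and rps12 stand to the right with medians of 19.01, 18.05, 17 and 13.5 points, and the genes with the most sites (nad4, nad5, nad7, nad2) have medians within 0.1 points of 0.

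The genes with the largest median differences had reference medians well under 100%: 79% in rps4, 73% in rpl5, 83% in nad3 and 85.5% in rps12. Over all their kept sites, the order of these genes did not follow the reference strictly, since rpl5 has a lower reference than rps4 and a smaller difference. The rpl5 medians include a site with a reference of 3%. Over sites with a reference of 10% to 89%, the order of these genes did follow the reference. The reference medians were then 77% in rpl5, 79% in rps4, 83% in nad3 and 85.5% in rps12. The median differences were 22.52, 19.01, 17 and 13.5 points in the same order. In the genes with the most sites the reference itself was near 100%, which leaves little or no room above it, so their small differences cannot be set against those of nad3 or the ribosomal protein genes. nad4 (31 sites), nad5 (30), nad7 (25), nad2 (20) and nad1 (15) had median differences of 0.00 points, except nad2 at -0.0751, and median levels of 100% in both libraries against reference medians of 99.5% to 100%. No site of nad1, nad2 or nad4 was called in either direction, but sites with a reference of 100% were tested against 99%. Complex I as a whole had 15 sites above and 5 below among 154, of which nad3 supplied 10 above. Complex IV had 1 above among 21 sites, complex III none among 8 and cytochrome c maturation none among 9. Sites of that last group lay high without being called: ccmC 667 stood at 98.7% in A and 99.2% in B, against 72% with an Std of 15, and ccmB 563 at 100% in both, against 81% with an Std of 14. The deepest sites within the reference spread were those of cox2, a core subunit gene of complex IV. cox2 761 was edited in 5496 of 5501 reads in A and 9231 of 9238 in B (99.91% and 99.92%), cox2 583 in 2803 of 2804 and 7827 of 7830, and cox2 680 in all 1439 and all 3063, each against 99%, with nad4 1660 likewise at 100% and 99.8% against 99%.

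Partially edited sites that change an amino acid lay mostly over the reference, and silent ones mostly under it. Of the 58 sites with a reference of 10% to 89%, 30 change an amino acid, 25 are silent and 3 lie outside annotated coding sequence. Of the 30 sites that change an amino acid, 29 lay over the reference in both libraries and 1 under it (atp4 515, at 85.1% in A and 82.4% in B against 86%). Of the 30, 18 were above and none below, and the median difference was 15.7 points. The effect was read with the codon's other bases as in the genome, which makes atp4 515 a change from proline to serine. Its codon partner atp4 516 was edited at 99.96%, and with that edit the codon is leucine whether or not 515 is edited. The deposited window of rpl5 516 also has T at the next base of its codon, and with that T the edit at 516 is silent. Of the 25 silent sites, 16 lay under the reference in both libraries and 6 over it, 3 were above and 5 below, and the median difference was -10.5 points. Reference level and effect go together here: 29 of the 30 sites that change an amino acid had a reference of 50% or more, and 16 of the 25 silent sites had one under 50%, so reference level and effect cannot be told apart over most of the range. Within 50% to 89%, where both kinds occur, the 29 sites that change an amino acid had a median difference of 15.0 points (range -2.26 to 29.5) and the 9 silent sites one of 12.2 points (range -17.4 to 25.3). Of those 9 silent sites, 6 were over the reference in both libraries, 2 under it, and nad5 680 (90.7% in A, 77.8% in B, against 89% with an Std of 10) on either side. The silent sites under it were nad7 1169 and nad4 1328, at 65.2% in A and 80.3% in B against 89% with an Std of 15.

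**Figure D4:**
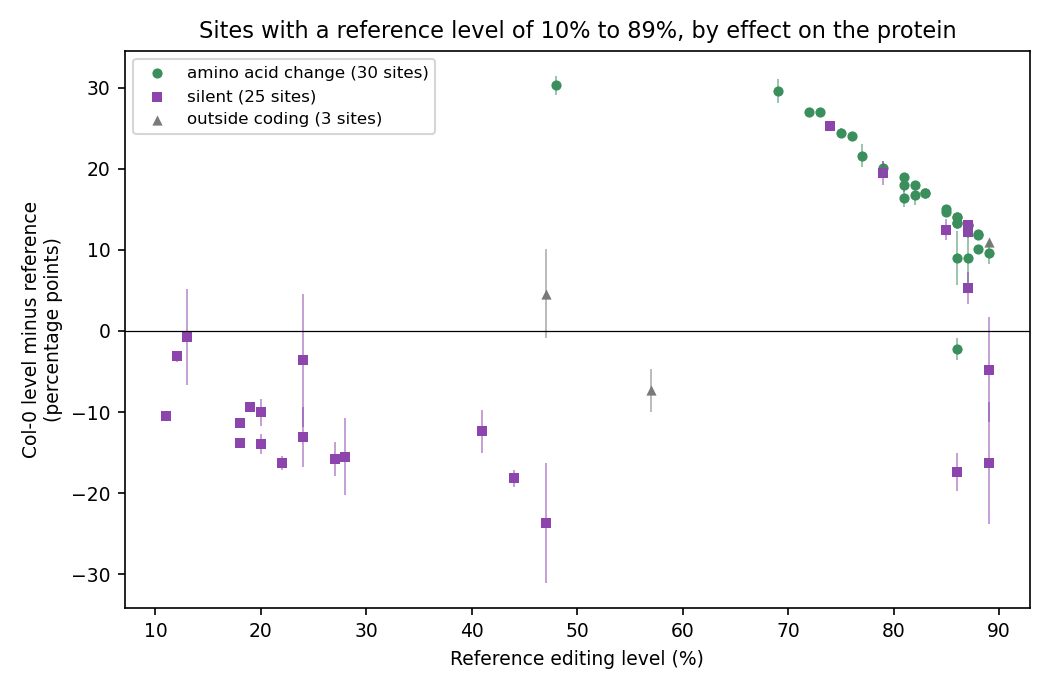
Difference between the Col-0 level and the reference in percentage points against the reference level in percent, for the 58 sites with a reference of 10% to 89%. Points are the mean of libraries A and B, and vertical lines join the libraries. Colours give the effect of the edit with the codon's other bases as in the genome. Of 30 green points (amino acid change), 29 lie over 0, while the purple points (silent) under a reference of 50% all lie under 0.

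The annotation of TAIR10.1 gives a second description of the same sites. It carries an editing note at 422 of the 434 listed sites and marks some as of minor frequency. Of the 226 kept sites, 25 bear that mark. Their Col-0 levels ran from 0% to 78.3%, all 25 had a reference of 48% or less, 19 lay under the reference in both libraries and 3 over it. rpl5 516 is marked minor and stood at 78.3% (mean of A and B), the highest of them. Of the 197 kept sites with a note but no such mark, 193 had a level of 90% or more. The other 4 were atp4 515, nad4 1328, nad5 680 and nad7 1169, of which the last 3 are silent. The edit at atp4 515 is silent too in transcripts edited at its codon partner atp4 516.

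Codon position and the preceding base were also tallied. Over all 226 sites, 13.7% were above and 2.21% below. At the last codon base 3 sites were above (9.38%) and 5 below among 32. At the middle base 20 were above (16.1%) and none below among 124, and at the leading base 8 above (11.9%) and none below among 67. The median reference was 27.5% at the last base and 99% at each of the others, so codon position and reference level cannot be told apart. By preceding base, 16 of 148 sites after T (10.8%), 12 of 62 after C (19.4%), 2 of 11 after A (18.2%) and 1 of 5 after G (20%) were above. A role of the preceding base was not tested. Where a codon held more than 1 kept site (9 codons), partners could differ: in the proline codon of atp4, site 515 stood at 83.7% and site 516 at 99.96%, against 86% and 99%. In nad5, sites 680 and 679 of an alanine codon stood at 84.2% and 100%, against 89% and 99%.

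The nuclear genome of Arabidopsis holds copies of mitochondrial DNA. The unedited 26-base stretch was found without a mismatch on a nuclear chromosome of the same assembly for 163 of the 226 sites (72.1%), for 26 of the 31 sites above, and for 2 of the 5 below. The 3 nad5 sites below the reference had no such copy. The part of such copies in the differences at the other called sites was not tested. The windows that the authors deposited carry T at 418 of the 434 sites.

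The 1 site that differed between the libraries was nad7 336, upstream of the annotated reading frame, at 46.1% in A (442 of 958 reads) and 57.1% in B (504 of 883), with a Fisher exact adjusted p of 0.00068 over the 226 sites. Its reference of 47% with an Std of 12 covers both values. At the edge of the depth rule, ccmB 580 was kept with 20 and 26 reads, none of them edited, against 6%, while nad1 811 was left out with 19 and 29 reads, all of them edited, against 100%. Of the 208 sites left out, 149 had under 20 reads in both libraries, 50 reached 20 in B alone and 9 in A alone, and 5 genes (ccmFC, matR, mttb, rpl16 and rps7) had no site kept. The sites left out held more partially edited ones by the reference: 54.3% had a reference of 10% to 89%, beside 25.7% of the sites kept.

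The authors' deposited tables carry a verdict of their own for each site and library. They mark 274 sites in A and 314 in B as verified, and 157 in A and 115 in B as of insufficient coverage. A further 3 sites in A and 5 in B are marked as lower than the reference, none of them in both libraries. There is no mark for a higher level. Of these 8 sites, 6 were kept here and 1 (nad5 1736) was below by the rule used here. The criterion behind that verdict is stated in neither the labels nor the files.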

How the data were processed

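RNA editing was measured in 2 Col-0 RNA-seq libraries (TruSeq, ribosomal RNA removed, per the labels' protocols). Per the submitters' processing notes, FastQC, cutadapt 1.9.1 and Bowtie 1.1.2 were used. Build, strand handling and caller were not given in the sources used here. Deposited tables hold, per site and library, the count of reads with each base, and the authors' observed fraction, left empty at 10 reads or fewer, with a reference fraction and its Std, written to 2 decimals by the authors. The level of a site was its T reads as a percent of its T and C reads. Sites with 20 or more such reads in both libraries were tested by the exact binomial test against the reference, held within 1% to 99%, with Benjamini-Hochberg adjustment per library, and by Fisher's exact test between libraries. Intervals are Wilson 95% and cover counting error only, since PCR reads without molecular identifiers are not independent molecules. The sites of a gene are not independent, so groups of sites have no test. Each deposited 26-base window was matched to the mitochondrial genome of TAIR10.1 (RefSeq), whose build may not be the authors', allowing C for T: 429 of 434 matched without a mismatch and 5 with 1. Codons were read with their other bases as in the genome. Sites named were the 12 largest above and up to 12 below, 5 at the reference with the most reads, 15 with the lowest reference of 10% or more, those differing between libraries, and the 2 at the edge of the depth rule; others were chosen after their values were seen. The members, lists and rules were chosen with earlier results of these data known. Tools were Python 3.11.15, scipy 1.17.1, statsmodels 0.14.6, pandas 2.3.3 and numpy 2.4.6. The Ribo-seq table was not used here.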

Additional observations from a re-analysis of the deposited data

Results flagged for a closer look

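Sites read deeply enough in library B alone, which the comparison above does not use, also held differences from the reference. Of 50 such sites, 9 were above and 3 below in B by the exact binomial test with 2 Std (Benjamini-Hochberg over all sites with 20 reads in B). Library A held 8 to 16 reads at these 12 sites, too few for the rule. Among those above, rps7 779 was edited in all 46 reads of B but in 9 of 11 of A (81.8%), which lies under its reference of 87% with an Std of 4. In B, rpl5 493 was edited in all 44 reads against 71% with an Std of 9, rps12 148 in all 49 against 82% with an Std of 3, and mttb 837, a silent site, in all 39 against 74% with an Std of 5. In A these 3 sites had 8 of 8, 12 of 12 and 11 of 12 reads edited, and the other 5 sites above also lay over the reference. The 3 below were silent: ccmFC 456 (5 of 32 reads in B and 4 of 9 in A, against 74% with an Std of 24), ccmFN2 821 (3 of 32 in B and 2 of 14 in A, against 34% with an Std of 8) and nad7 1511 (8 of 22 in B and 1 of 8 in A, against 79% with an Std of 10).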

How the results depend on the processing

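The counts of sites above (31) and below (5) depended on how the reference spread was used. Above and below, they were 35 and 11 at 1 Std, 22 and 3 at 3 Std, 45 and 12 by the binomial test alone, 63 and 16 by 2 Std alone, 51 and 13 with the reads of both libraries summed, and 5 and 1 by the normal test with the squared Std added. The 31 and 5 sites were all among those called at 1 Std, by the binomial test alone, by 2 Std alone and with summed reads. At a minimum of 100 reads 14 of 89 sites were above and 4 below, since fewer sites were tested. Without sites whose window lies on a nuclear chromosome, an alternative chosen after seeing the data, 5 of 63 were above and 3 below, all of them among the 36. The range without 1 library was 31 to 44 above and 6 to 13 below. The higher values came without replicate A, from B with its greater depth. Of the sites that B alone added below, cox2 457, cox2 902 and nad2 816 have a reference of 100%, tested as 99%. Their levels in B of 99.76%, 99.88% and 99.86% passed because they lie over 99%, so they are no shortfall against the tested level. Other alternatives gave counts within 1.5 times. The median difference was 0.81 points, 0.94 at a minimum of 10 reads, 0.11 at 50 and 0.88 at 100, 0.65 with T over all reads, and 0.79 to 0.86 with either library alone. The cause of these shifts was not tested. 1 site differed between the libraries at every minimum tried (10, 20, 50 and 100 reads). Depth limits the calls: the difference of 13 points at rps12 328 did not pass at 23 reads in A. No paired analysis was possible because the reference is 1 value per site with no replicates, so nothing pairs with libraries A and B.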
